A study of Mus musculus with 16 samples.

Results

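The RANKL, RANK and osteoprotegerin axis was followed in mouse subchondral bone through 4 genes: Tnfsf11, which encodes the ligand RANKL, Tnfrsf11b, which encodes its decoy receptor osteoprotegerin, Tnfrsf11a, which encodes the receptor RANK, and Nfatc1, a transcription factor downstream of RANK. The members were every non-control probe that the array design assigns to one of these genes, which gave 8 of 56605 probes on the array and 4 of the 28250 genes tested. Tnfsf11 had 2 probes, Tnfrsf11b had 1, Tnfrsf11a had 3 and Nfatc1 had 2. Bone beneath the cartilage of the medial tibial plateau was isolated by laser microdissection from frozen sections, and the RNA of 1 joint of 1 mouse was hybridised to each of 16 one-colour Agilent arrays. Destabilization of the medial meniscus (DMM) cuts the medial menisco-tibial ligament and is a surgical model of osteoarthritis, and in the sham operation the ligament was exposed but left intact. The 4 groups were DMM at 1 week, sham at 1 week, DMM at 6 weeks and sham at 6 weeks, with 4 arrays each. All were male wild-type C57BL6 mice aged 10 to 12 weeks when both knees were operated, so time after surgery and age cannot be told apart. Each of 2 slides held 2 arrays of each group, with replicates 1 and 2 of every group on slide 1 and replicates 3 and 4 on slide 2.

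RANKL is made by osteocytes, osteoblast-lineage cells and some lymphocytes, and it binds RANK on osteoclast precursors of the monocyte lineage. RANK then recruits TRAF6 and activates NF-kappa-B, AP-1 and calcium signalling, which induce Nfatc1, and NFATc1 switches on the genes that let osteoclasts fuse and resorb bone. Osteoprotegerin is a soluble decoy that occupies RANKL and so keeps it from RANK, which is why the balance of RANKL to osteoprotegerin is a common readout of the drive to form osteoclasts.

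The probes are 60 bases long, and the opening 30 bases of the 6 Tnfsf11, Tnfrsf11b and Tnfrsf11a probes are shown because probes of one gene did not always give the same difference and each reads a separate stretch of its transcript. Sequences are those of the scanner files, 5′ to 3′, with mm9 positions. Capitals mark a run of 19 bases that occurs again within the same probe, starting at base 30 of it, and lower case marks all other bases.
Tnfsf11 A_55_P2039359, chr14:78677474-78677503, minus strand: gatacataataggctactgaaatctgtcag
Tnfsf11 A_52_P488947, chr14:78677989-78678018, minus strand: gtcattgcaaagaaatgatagtgtgaaggg
Tnfrsf11b A_52_P106620, chr15:54082790-54082819, minus strand: tttatccagctgtcatgtctggttcagtat
Tnfrsf11a A_55_P2325803, chr1:107741892-107741921, plus strand: ccttgagagctaagttcaggtgaccttgtc
Tnfrsf11a A_52_P1068320, chr1:107743752-107743781, plus strand: ATCTAGACCTTAACAGTAAtccggcaggta
Tnfrsf11a A_55_P2621650, chr1:107710861-107710890, plus strand: ggagggctgggagataatttctgctctaaa

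The Tnfsf11 probes lie 515 bp apart on chromosome 14. On chromosome 1, A_52_P1068320 and A_55_P2325803 lie 1860 bp apart, and A_55_P2621650 lies 31031 bp upstream of A_55_P2325803 and is assigned to a different Tnfrsf11a transcript. The Nfatc1 probes, A_51_P517870 at chr18:80803664-80803723 and A_51_P220135 at chr18:80845439-80845498, both on the minus strand, lie 41.8 kb apart. The array design assigns A_51_P220135 to transcript variant 1 of Nfatc1 and A_51_P517870 to transcript variant 2. Exons and untranslated regions were not annotated here, since no mm9 gene models were used.

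Every level below is the log2 of the processed signal of a probe minus the 75th percentile of its array, so a level of 0 equals that percentile, and levels of different probes are not compared with each other. The 75th percentile of signal ran between 329 and 873, and between 66.7% and 80.4% of probes were well above background. Sham replicate 2 at 6 weeks had the lowest percentile, and its score on the main principal component, 177, was far from those of the remaining arrays (-69.6 to 71.7). All 6 osteoblast, 6 osteocyte and 7 osteoclast marker genes were well above background on 16 of 16 arrays, as the bone label requires. Markers of red cell precursors, B cells and neutrophils were well above background on 16 of 16 arrays too, so marrow cells were part of the samples. Of the chondrocyte markers, Acan, Col2a1, Col9a1, Col11a1, Sox9 and Comp were well above background on 16 of 16 arrays, and Matn3 on 10. The mean level of the chondrocyte markers was highest, at 1.97, on sham replicate 2 at 6 weeks. The muscle genes Ckm and Myh4 passed that limit on 5 and 4 arrays, while Acta1, Myl1 and Tnnt3 passed it on 16 of 16. In such bulk samples, fewer cells of a type and less RNA per cell cannot be told apart.

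Of the 8 member probes, 7 were well above background on all arrays on which they had a usable spot. The exception was Tnfsf11 A_52_P488947, which was well above background on 15 of 16. One spot of Tnfrsf11a A_55_P2325803, on sham replicate 2 at 6 weeks, was marked non-uniform by the scanner software, and this probe was fitted on 15 arrays. For that reason Tnfrsf11a was represented among genes by A_52_P1068320, the brightest of its probes with every spot. The other genes were represented by their brightest probe, A_55_P2039359 for Tnfsf11, A_52_P106620 for Tnfrsf11b and A_51_P517870 for Nfatc1.

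The first question was whether destabilization changed the axis. It did not do so measurably for any member: no gene of the axis passed the test between DMM and sham at 1 week, at 6 weeks, or over both times. Most estimates lay near 0, and the 95% intervals at the 2 times reached from -0.98 to 1.13 log2 units over RANKL, RANK and osteoprotegerin and from -0.56 to 0.31 for the brighter Nfatc1 probe.

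For Tnfsf11, the ligand gene, probe A_55_P2039359 gave levels of -1.22, -3.22, -3.00 and -3.05 in DMM joints at 1 week, against -2.60, -2.62, -2.70 and -2.51 in sham joints at 1 week. At 6 weeks it gave -3.32, -4.04, -2.78 and -2.97 in DMM joints, against -3.48, -3.51, -3.23 and -2.58 in sham joints. The groups overlapped at both times, and DMM replicate 1 at 1 week was the highest of all 16 arrays while the other 3 DMM joints at 1 week lay below every sham joint of that time. The 4 sham joints at 1 week spanned less than 0.2 log2 units, with an SD of 0.078, against an SD of 0.94 in the DMM joints (n = 4 each). The limma estimate of DMM minus sham was -0.01 ± 0.39 (SE, 95% interval -0.84 to 0.82) at 1 week and -0.07 ± 0.39 (-0.91 to 0.76) at 6 weeks. The second Tnfsf11 probe, A_52_P488947, read -1.96, -3.10, -3.44 and -3.60 in DMM joints at 1 week, against -3.09, -2.99, -3.06 and -3.12 in sham joints. At 6 weeks the values were -4.28, -4.80, -3.29 and -3.66 in DMM joints, against -4.07, -3.76, -3.93 and -3.61 in sham joints, and the DMM value of -4.80 was not well above background. The same DMM joint stood high at 1 week with this probe, and the groups overlapped again.

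Tnfrsf11b, the gene of the decoy receptor, gave -0.20, -1.70, -0.56 and -0.48 in DMM joints at 1 week, against -1.24, -0.71, -1.45 and -0.85 in sham joints. At 6 weeks it gave -1.82, -1.97, -0.37 and -0.60 in DMM joints, against -0.87, -1.42, -1.09 and -1.06 in sham joints. In the decoy receptor gene, 3 of the DMM joints at 1 week were above all 4 sham joints and the other was below them, and at 6 weeks the DMM joints lay on both sides of the sham joints, those of slide 1 below and those of slide 2 above. The difference was 0.33 ± 0.38 (SE, 95% interval -0.47 to 1.13) at 1 week and -0.08 ± 0.38 (-0.88 to 0.72) at 6 weeks by limma. The 1-week estimate was 0.0305 within slide 1 and 0.63 within slide 2, and it was 0.15 without DMM replicate 1 and 0.65 without DMM replicate 2. The 6-week estimate was -0.75 within slide 1 and 0.59 within slide 2.

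Tnfrsf11a, the receptor gene, gave with A_52_P1068320 -0.11, -2.44, -0.59 and -0.84 in DMM joints at 1 week, against -1.25, -0.51, -0.81 and -1.15 in sham joints. At 6 weeks it gave -1.70, -2.64, -1.47 and -1.49 in DMM joints, against -2.14, -1.89, -1.52 and -1.35 in sham joints. Both ends of the 1-week range were DMM joints, replicate 1 at the top and replicate 2 at the bottom, so the sham joints lay within the DMM range. Probe A_55_P2325803 read 2.39, 1.49, 1.72 and 1.62 in DMM joints at 1 week, against 1.85, 2.32, 1.89 and 1.41 in sham joints. It read 0.88, 0.62, 1.42 and 1.30 in DMM joints at 6 weeks, against 0.99, 1.28 and 1.14 in the 3 sham joints with a usable spot. Levels of the other probe, A_55_P2621650, lay between -2.06 and -1.07 in DMM joints and between -2.26 and -1.15 in sham joints at 1 week. Its 6-week levels lay between -2.70 and -2.11 in DMM joints and between -2.99 and -1.44 in sham joints. DMM minus sham for A_52_P1068320 was -0.06 ± 0.41 (SE, 95% interval -0.94 to 0.82) at 1 week and -0.10 ± 0.41 (-0.98 to 0.78) at 6 weeks by limma.

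Nfatc1, the transcription factor gene, was the steadiest member with probe A_51_P517870, which read 1.61, 1.70, 1.79 and 1.82 in DMM joints at 1 week, against 1.77, 2.09, 1.96 and 1.82 in sham joints. At 6 weeks it read 1.24, 1.29, 1.70 and 1.28 in DMM joints, against 1.78, 1.05, 1.61 and 1.32 in sham joints. Over all 16 arrays the SD of this probe was 0.29, and 23.4% of all genes tested had a smaller one. Probe A_51_P220135 read 1.79, 0.93, 1.12 and 0.98 in DMM joints at 1 week, against 1.23, 1.70, 1.10 and 0.86 in sham joints. At 6 weeks this probe read -0.20, -0.42, 0.65 and 0.48 in DMM joints, against 0.02, 0.62, 0.66 and 0.61 in sham joints. DMM and sham joints overlapped at both times with both probes. The difference between DMM and sham for A_51_P517870 was -0.18 ± 0.18 (SE, 95% interval -0.56 to 0.20) at 1 week and -0.06 ± 0.18 (-0.44 to 0.31) at 6 weeks by limma, and for A_51_P220135 it was -0.02 ± 0.28 at 1 week and -0.35 ± 0.28 at 6 weeks.

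**Figure D1:**
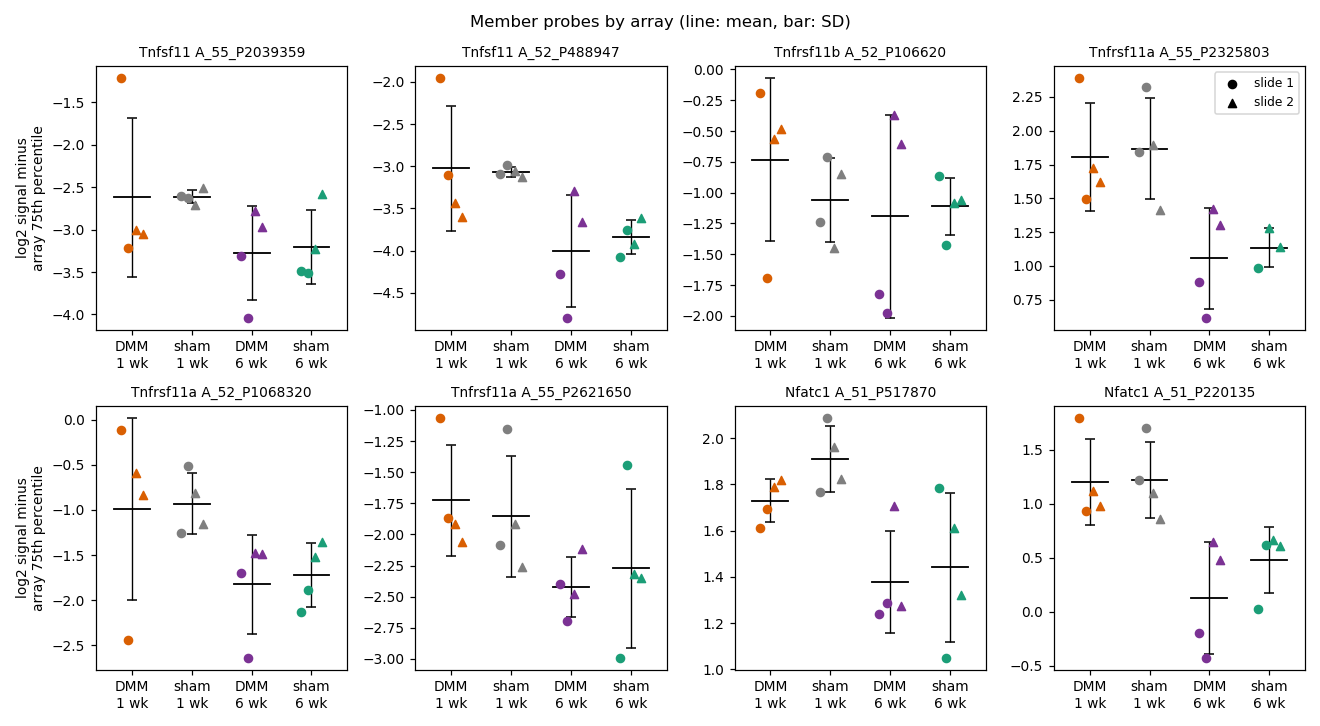
Level of each of the 8 member probes on every array, as log2 signal minus the 75th percentile of the array, by group, with DMM left of sham at 1 and at 6 weeks. Points are arrays, the line is the group mean and the bar is the SD (n = 4, or 3 for Tnfrsf11a A_55_P2325803 in sham joints at 6 weeks). DMM and sham points overlap in every panel at both times, and the 6-week means lie below the 1-week means.

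None of the 4 members was called between DMM and sham at 1 week, where limma called 0% of 28250 genes, and none at 6 weeks, where it also called 0%. The adjusted p was 1 for each member at 1 week and 0.9996 at 6 weeks. The unadjusted p was under 0.05 for 273 genes at 1 week, which is 0.966% of those tested, and for 220 genes at 6 weeks, which is 0.779%, and no member was among either. Among probes, DMM and sham arrays did not overlap for 0 of the 8 member probes at either time, against 1.24% of 43466 probes at 1 week and 0.511% at 6 weeks. At 6 weeks all 8 probes had an estimate below 0, from -0.35 to -0.06, as did 53.8% of all probes, while Tnfsf11 was at 2e-04 after quantile normalization. With array weights 4 of the 7 probes that gave a value lay above 0, Tnfsf11 A_55_P2039359 at 0.085, Tnfrsf11b at 0.13, A_52_P488947 at 0.039 and A_55_P2621650 at 0.066, and 6 of 8 did within slide 2, with Tnfrsf11b highest at 0.59. At 1 week 5 of the 8 probes had an estimate below 0, against 49.5% of all probes. The DMM effect at 6 weeks minus that at 1 week was not called for a member either, with adjusted p values of 0.9999 in limma, where 0% of genes passed and 193 (0.683%) had an unadjusted p under 0.05. Over both times 0% of genes were called, with 265 (0.938%) at an unadjusted p under 0.05.

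Genes that act around the axis were taken from 7 lists with 102 genes in all. They covered inducers of RANKL, M-CSF and co-stimulatory receptors, transducers of the RANK signal, osteoclast transcription factors and inhibitors. The remaining lists were NFATc1 targets with osteoclast effectors, and other partners of osteoprotegerin together with a receptor of TRAIL. Between DMM and sham, 0 of these 102 genes were called by limma and 0 had an unadjusted p under 0.05 at 1 week, at 6 weeks or over both times. At 1 week 68 of the 102 were lower in DMM joints with a median difference of -0.093, and at 6 weeks 51 were lower with a median of -0.0052. Of all 28250 genes, 13900 were lower at 1 week with a median of 0.0032, and 15105 at 6 weeks with a median of -0.0228.

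The second comparison set 6 weeks against 1 week after surgery, within each operation and averaged over both. All 8 member probes were lower at 6 weeks than at 1 week in DMM joints and in sham joints alike, which holds for 32.9% of all probes. The decrease passed the test for a single probe, Nfatc1 A_51_P220135, whose signal at 6 weeks was 0.532 of that at 1 week. RANKL and RANK were lower by 0.56 to 0.88 log2 units without passing it, and osteoprotegerin by the least, 0.25.

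**Figure D2:**
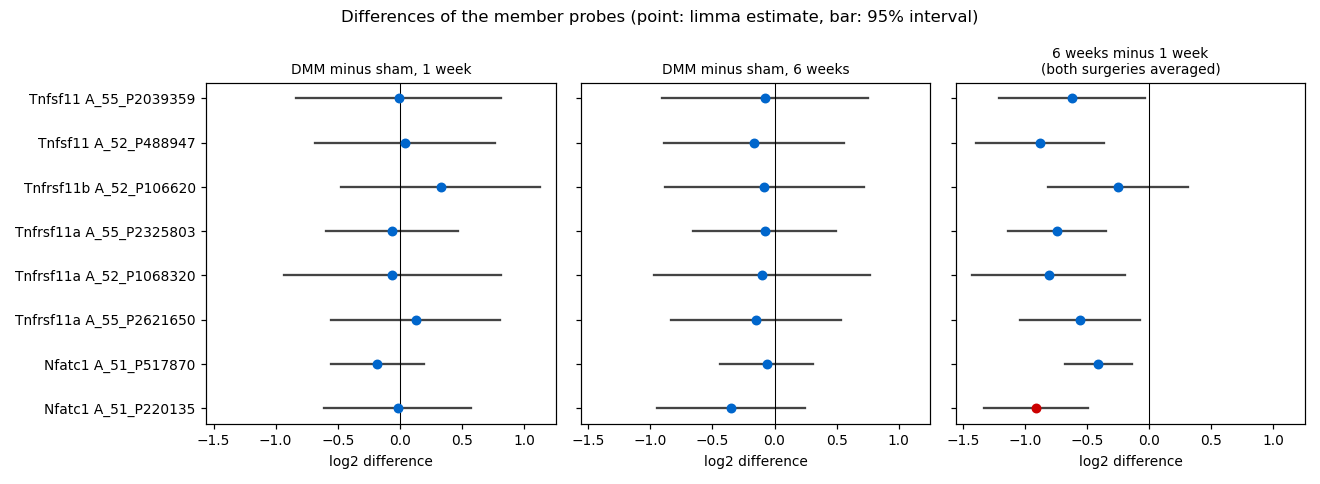
Differences of the 8 member probes on the log2 scale, with DMM minus sham at 1 and 6 weeks and 6 weeks minus 1 week averaged over both operations. Points are limma estimates and bars are 95% intervals over 16 arrays (15 for Tnfrsf11a A_55_P2325803). Every DMM interval crosses 0, while 7 of the 8 intervals for 6 weeks minus 1 week lie below 0 and that of Tnfrsf11b does not.

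Nfatc1 A_51_P220135 averaged 0.13 ± 0.52 at 6 weeks and 1.21 ± 0.40 at 1 week in DMM joints, and 0.48 ± 0.30 at 6 weeks and 1.22 ± 0.35 at 1 week in sham joints (SD, n = 4 each). Its difference averaged over both operations was -0.91 ± 0.20 (SE, 95% interval -1.33 to -0.49) with an adjusted p of 0.0473 in limma over 43466 probes, of which 0.831% were called and 0.276% were called lower. All 8 arrays at 6 weeks were below all 8 arrays at 1 week. The adjusted p lies close to the threshold of 0.05: when single arrays were left out the call held in 3 of 16 cases, and the estimate ran from -1.0 to -0.81. The other Nfatc1 probe, A_51_P517870, was lower by less, -0.41 ± 0.13 with an adjusted p of 0.113 in limma over genes, and without passing the test. Among genes, limma called 0.874% in this comparison and none of the 4 members, and 15.8% had an unadjusted p under 0.05, among them Tnfsf11, Tnfrsf11a and Nfatc1.

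The ratio of the 2 Nfatc1 probes, which was looked at after their values had been seen, was lower at 6 weeks by 0.50 log2 units on average, with an exact permutation p of 0.0412 and an adjusted p of 0.2 over 7 comparisons. It averaged -1.25 ± 0.41 at 6 weeks and -0.52 ± 0.47 at 1 week in DMM joints, and -0.96 ± 0.57 at 6 weeks and -0.69 ± 0.27 at 1 week in sham joints (SD, n = 4 each). The difference was -0.96 within slide 1 and -0.044 within slide 2, so it rested on the arrays of slide 1.

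Tnfsf11 A_52_P488947 averaged -4.01 ± 0.67 at 6 weeks and -3.02 ± 0.74 at 1 week in DMM joints, and -3.84 ± 0.20 at 6 weeks and -3.07 ± 0.057 at 1 week in sham joints (SD, n = 4 each). All 4 sham joints at 6 weeks were below all 4 sham joints at 1 week with this probe, while DMM joints of the 2 times overlapped. Averaged over both operations the difference was -0.88 ± 0.24 (SE, 95% interval -1.39 to -0.36) with an adjusted p of 0.0853 in limma. It passed with array weights (-0.67, adjusted p = 0.019) and without DMM replicate 3 at 6 weeks (-1.0, adjusted p = 0.0464). Such weights were uneven, and in the fit over genes sham replicate 3 at 6 weeks had 9.12 and sham replicate 2 had 0.076. For the other probe of the gene, A_55_P2039359, the averaged difference was -0.62 ± 0.28 with an adjusted p of 0.283 in limma, and here the 2 times overlapped in both operations. The 2 Tnfsf11 probes nonetheless followed each other over the 16 arrays, with a Pearson r of 0.905 (permutation p = 4e-05, adjusted p = 0.0001 over 5 probe pairs) and a Spearman rho of 0.788 (adjusted p = 0.00075). Without the 2 arrays farthest from the median r was 0.726.

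All 3 Tnfrsf11a probes were lower at 6 weeks. Probe A_55_P2325803 averaged 1.06 ± 0.37 at 6 weeks and 1.81 ± 0.40 at 1 week in DMM joints, and 1.14 ± 0.15 (n = 3) at 6 weeks and 1.87 ± 0.37 at 1 week in sham joints (SD, n = 4 otherwise). Its difference was -0.74 ± 0.18 (SE, 95% interval -1.13 to -0.35), and the adjusted p was 0.0677 in limma. Among usable spots the times did not overlap within either operation. The spot set aside, on sham replicate 2 at 6 weeks, was high. Its processed signal was 1468 on an array whose 75th percentile was 329. Relative to that percentile it lay above the other sham joints at 6 weeks and within the range of sham joints at 1 week. The authors' log2 values, which are scaled otherwise, gave 11.81 there, against 10.45 to 11.43 in sham joints at 1 week. The other Tnfrsf11a probes gave -0.81 ± 0.29 (A_52_P1068320, adjusted p = 0.174) and -0.56 ± 0.23 (A_55_P2621650, adjusted p = 0.227) in limma. A_52_P1068320 overlapped between times in DMM joints and not in sham joints, and A_55_P2621650 showed the converse. Tnfrsf11b was -0.25 ± 0.27 (SE, 95% interval -0.82 to 0.31) with an adjusted p of 0.752, and its levels at the 2 times overlapped widely in both operations.

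Arrays of 6 weeks lay entirely below those of 1 week for 3 of 8 member probes in DMM joints, against 2.74% of all probes, and for 4 of 8 in sham joints, against 3.49%. The probes were A_51_P220135 and A_55_P2325803 in both, with A_55_P2621650 in DMM joints and A_52_P1068320 and A_52_P488947 in sham joints. For A_55_P2325803 in sham joints this leaves out the high spot that was set aside as non-uniform. The 8 probes read 4 genes, and probes of the same gene followed each other (Pearson r from 0.603 to 0.905). Such probe counts therefore hold a gene more than once. With 1 probe per gene, no member lay entirely lower at 6 weeks in DMM joints, where 2.43% of genes did. In sham joints only Tnfrsf11a did, against 3.15% of genes. Within one operation limma called 0% of genes between the times, with 2741 genes (9.7%) at an unadjusted p under 0.05 in DMM joints and 2020 (7.15%) in sham joints, so no member was called there. Averaged over both operations, 7 of 8 member probes had an unadjusted p under 0.05 and were lower, against 9.38% of all probes. Whether the change over time differed between DMM and sham is the same test as the change of the DMM effect above, and no member passed it.

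The size of the 6-week difference was not the same on both slides. Within slide 1 it was -1.17 for Tnfsf11, -1.01 for Tnfrsf11a, -0.56 for Tnfrsf11b and -0.45 for Nfatc1. Within slide 2 it was -0.073 for Tnfsf11, -0.61 for Tnfrsf11a, 0.053 for Tnfrsf11b and -0.37 for Nfatc1. Tnfrsf11a and Nfatc1 were thus lower on both slides, whereas the Tnfsf11 difference of A_55_P2039359 came almost wholly from slide 1 and that of Tnfrsf11b changed sign. The called probe A_51_P220135 gave -1.41 and -0.41, and Tnfsf11 A_52_P488947 gave -1.44 and -0.32, on slides 1 and 2.

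The ratio of RANKL to osteoprotegerin was taken on each array as the Tnfsf11 level minus the Tnfrsf11b level. It was -1.02, -1.52, -2.44 and -2.57 in DMM joints at 1 week, against -1.36, -1.91, -1.26 and -1.67 in sham joints. At 6 weeks it was -1.49, -2.07, -2.41 and -2.36 in DMM joints, against -2.61, -2.09, -2.15 and -1.51 in sham joints. The DMM joints at 1 week lay on both sides of the sham joints, with the 2 highest on slide 1 and the 2 lowest on slide 2, and at 6 weeks DMM and sham covered nearly the same range. Being a ratio of 2 probes, its absolute level has no meaning as a ratio of molecules, and only differences between arrays are read.

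By an exact permutation test over arrays, the ratio differed between DMM and sham by -0.34 ± 0.36 (p = 0.4) at 1 week and by 0.0072 ± 0.36 (p = 0.943) at 6 weeks. The SE given for ratio differences pools the spread of all 4 groups, so it is the same at both times. The group SDs were 0.74 in DMM and 0.30 in sham joints at 1 week, and 0.42 and 0.45 at 6 weeks (n = 4 each). The 6-week minus 1-week difference was -0.20 in DMM joints (exact permutation p = 0.8) and -0.54 in sham joints (exact permutation p = 0.0857), where the smallest p that 4 against 4 arrays allow is 0.0286. Averaged over both operations the 6-week ratio differed by -0.37 ± 0.25 (exact permutation p = 0.159, adjusted p = 0.556 over 7 comparisons). With the second Tnfsf11 probe the averaged difference was -0.62 (exact permutation p = 0.0257, adjusted p = 0.1), and the sham difference was -0.73 at the smallest p the design allows. No comparison of the ratio passed the adjustment with either probe. The 1-week DMM difference was -0.63 without DMM replicate 1 and -0.11 without DMM replicate 4. It was 0.36 within slide 1 and -1.04 within slide 2, and the averaged 6-week difference was -0.61 within slide 1 and -0.13 within slide 2.

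**Figure D3:**
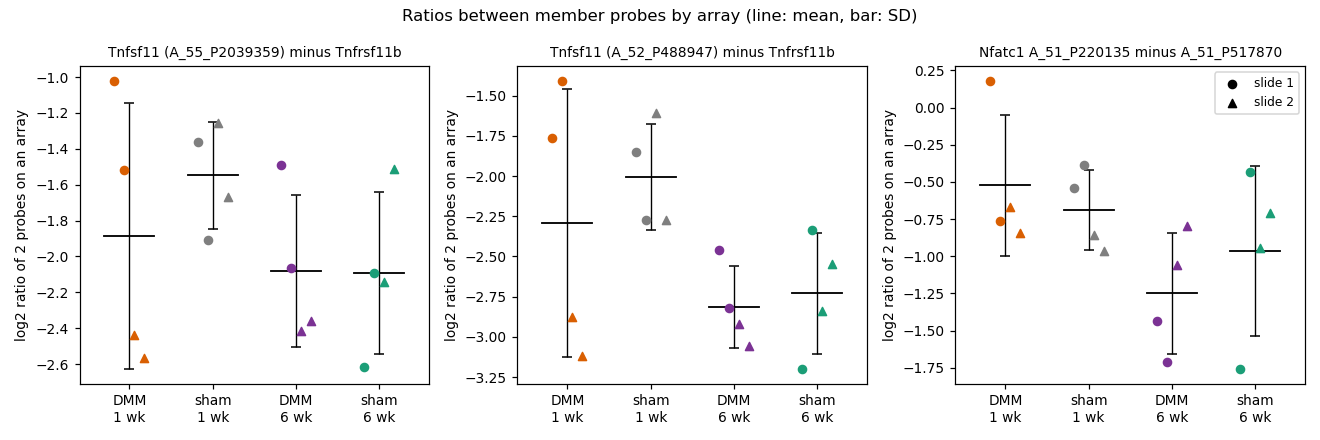
Log2 ratio of Tnfsf11 to Tnfrsf11b, and of Nfatc1 probe A_51_P220135 to A_51_P517870, on each array by group, with DMM left of sham. Points are arrays, the line is the mean and the bar is the SD (n = 4). The Tnfsf11 to Tnfrsf11b ratio averages -1.89 in DMM joints and -1.55 in sham joints at 1 week, and -2.08 in DMM joints and -2.09 in sham joints at 6 weeks, with overlapping points.

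Around the axis, 76 of the 102 list genes were lower at 6 weeks than at 1 week averaged over both operations, with a median of -0.21, whereas the median over all 28250 genes was 0.039 and 55.6% of genes lay above 0. Of the 102, 2 passed the test, Mmp9 and Fosl2, where 0.874% of all genes did, and 37 had an unadjusted p under 0.05 in either direction, where 15.8% of all genes did. The lists closest to the osteoclast had the lowest medians. Of the 16 NFATc1 targets and osteoclast effectors 13 were lower, with a median of -0.48, and of the 11 osteoclast transcription factors 10 were lower, with a median of -0.54.

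Mmp9 encodes a gelatinase, and its cells of origin in these samples were not tested. Its level fell by 0.80 on the log2 scale, with an SE of 0.12 and an adjusted p of 0.0347 in limma. It averaged 3.82 ± 0.20 at 6 weeks and 4.48 ± 0.16 at 1 week in DMM joints, and 3.80 ± 0.17 at 6 weeks and 4.74 ± 0.24 at 1 week in sham joints (SD, n = 4 each), and the call held in 4 of 16 fits without 1 array. Calcr, the calcitonin receptor of osteoclasts, differed by more but varied more between arrays, at -1.25 ± 0.31 with an adjusted p of 0.0649. Fosl2, an AP-1 subunit needed for normal osteoclasts, fell by 0.71, with an SE of 0.15 and an adjusted p of 0.0468, and its call held in 4 of 16 such fits. Among 12 other settings the Mmp9 call held in 9, and it was lost with no filter (adjusted p = 0.0556 in limma) and within each slide. The Fosl2 call held in 6 of them, and it was lost after quantile normalization (limma adjusted p = 0.0516), with the mean of all its probes (0.192), with the authors' values (0.0511), with no filter (0.075) and within each slide. Prdm1, which encodes Blimp1, a repressor of genes that block osteoclast formation, was at -0.76 ± 0.21 without passing (adjusted p = 0.0837).

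Among the 18 genes that induce RANKL or receive those signals, 14 were lower and 0 were called, with a median of -0.34. Their leading genes were Pth1r, the parathyroid hormone receptor through which osteoblasts and osteocytes raise RANKL, at -0.92 ± 0.24 (limma adjusted p = 0.0733), and Stat3, a mediator of interleukin-6 family signals, at -0.53 ± 0.15 (adjusted p = 0.0913). Of the 15 inhibitors 13 were lower with a median of -0.19, led by Rcan1, which restrains calcineurin, at -0.67 ± 0.23, and Traf3, which restrains NF-kappa-B signalling, at -0.32 ± 0.11, and neither was called. Of the 23 transducers 16 were lower with a median of -0.067, against 0.039 over all genes. The leading ones were Ppp3ca, a catalytic subunit of calcineurin, at -0.34 ± 0.10 and Gab2, a RANK adaptor, at -0.33 ± 0.11.

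The 14 genes of M-CSF and co-stimulatory signalling were split evenly, with 7 lower and a median of -0.039. Csf1r, the M-CSF receptor of osteoclast precursors, was at -0.34 ± 0.13, and Blnk, an adaptor shared with B cells, was at 0.55 ± 0.24, and neither was called by limma. The list of other partners of osteoprotegerin held 5 genes, among them a receptor of the TRAIL ligand, Tnfrsf10b, and 3 of the 5 were lower. Vwf, which encodes von Willebrand factor, was at 0.60 ± 0.20 and Tnfrsf10b was at -0.42 ± 0.18, and neither was called.

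Without sham replicate 2 at 6 weeks, a setting chosen after the data had been seen, 1502 genes passed in place of 247, which is 5.32% of the genes tested. The NFATc1 targets and effectors then held 4 genes called lower and 1 called higher, the RANKL inducers 3 called lower, and the transcription factors, transducers and M-CSF list 1 each called lower. The medians of the M-CSF list and of the partners of osteoprotegerin changed sign, to 0.065 and 0.0068. Tnfrsf11a A_55_P2325803, whose high spot on that array had already been set aside, was called in this limma fit with an adjusted p of 0.0332. Its estimate of -0.74 and its own levels were the same in both fits, so the call came with the change in the fit over all probes.

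**Figure D4:**
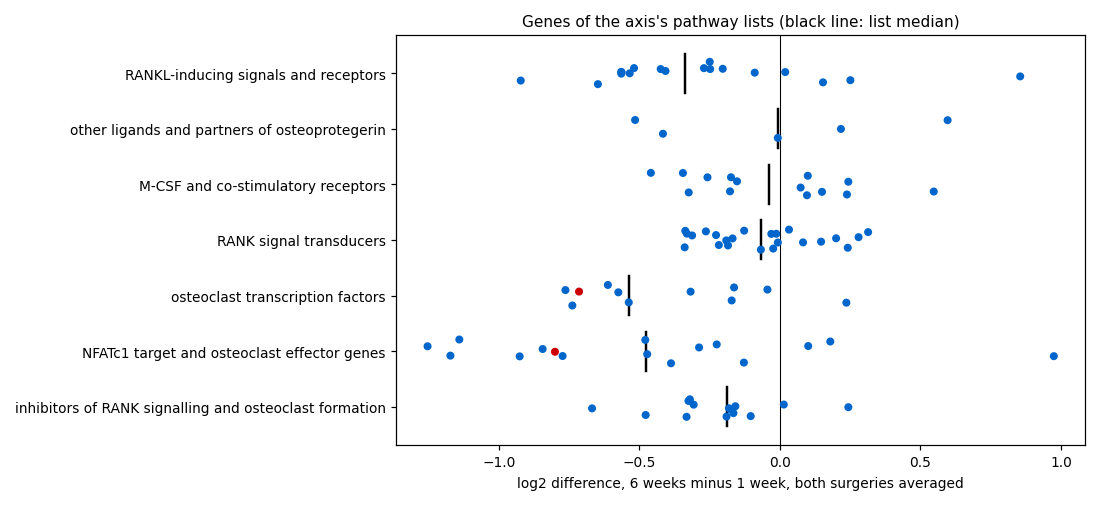
Log2 difference of each of 102 genes, 6 weeks minus 1 week averaged over both operations, in 7 lists around the axis. Each point is a gene and the black line is the list median. Medians run from -0.54 for osteoclast transcription factors to -0.0072 for other partners of osteoprotegerin, and most genes of the transcription factor and effector lists lie left of 0.

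Levels of cell type markers also differed between the times, and their part in the member differences was not tested. Osteoclast markers averaged 2.57 (range 2.22 to 2.90) at 6 weeks and 3.23 (2.33 to 3.94) at 1 week in DMM joints, and 2.60 (1.92 to 3.11) at 6 weeks and 3.27 (2.95 to 3.69) at 1 week in sham joints. Of the 7 osteoclast markers 6 were lower at 6 weeks, with a median of -0.77, and 0 were called by limma while 5 had an unadjusted p under 0.05. All 7 are also in the effector list above. Of the 6 osteocyte markers 5 were lower with a median of -0.23, and of the 6 osteoblast markers 5 were lower with a median of -0.58. Of these, 0 were called by limma, and 1 osteocyte and 2 osteoblast markers had an unadjusted p under 0.05. Pth1r is both an osteoblast marker and in the list of RANKL inducers above. Red cell precursor markers had the opposite sign, with 6 of 6 higher, 1 called and a median of 1.21. They averaged 4.33 (range 3.69 to 4.65) at 6 weeks and 2.77 (1.27 to 3.81) at 1 week in DMM joints, and 3.63 (1.87 to 4.32) at 6 weeks and 2.80 (1.98 to 3.42) at 1 week in sham joints. All 5 measured B cell markers were higher with a median of 0.85, as were 6 of 6 T cell markers (0.27), 5 of 5 skeletal muscle markers (0.70) and 5 of 7 chondrocyte markers (0.81), and 0 of these were called by limma, while 4 B cell, 1 T cell, 3 muscle and 3 chondrocyte markers had an unadjusted p under 0.05. Not all marrow markers rose: 5 of 6 neutrophil markers were lower with a median of -0.17. Macrophage and monocyte markers were split, with 3 lower and 3 higher and a median of -0.16. Of the marrow stromal markers 4 were higher and 2 lower (0.13), and of the hypertrophic chondrocyte markers 2 were higher and 1 lower (0.23). In these 4 lists 0 genes were called by limma. Csf1r is both a macrophage marker and in the M-CSF list above.

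Across the 16 arrays the members were set against the mean level of cell type markers, and differences between these correlations were not tested. RANK followed the osteoclast markers, with a Pearson r of 0.883 between Tnfrsf11a and the mean of the 7 markers (permutation p = 1e-05, the smallest that 100000 permutations can give, adjusted p = 0.00027 over 54 relations) and a Spearman rho of 0.868 (adjusted p = 0.00135). The relation held within slide 1 (r = 0.917) and within slide 2 (r = 0.895), for deviations from group means (r = 0.816), and without the 2 arrays farthest from the median (r = 0.845). Osteoprotegerin followed the osteocyte markers Dmp1, Sost, Phex, Mepe, Pdpn and Fgf23, with r = 0.903 (permutation p = 1e-05, adjusted p = 0.00027) and rho = 0.874 (adjusted p = 0.00135). That relation gave r = 0.921 within slide 1, 0.777 within slide 2, 0.905 for deviations from group means and 0.869 without the 2 farthest arrays. Its call was lost within slide 2 (permutation adjusted p = 0.447). Osteoprotegerin was not called against the osteoclast markers, with r = 0.421 and an adjusted p of 0.267.

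RANKL was related to more than one list over all arrays, but its relations were weak within slide 2. Tnfsf11 against the osteocyte markers gave r = 0.766 (permutation adjusted p = 0.00472) and rho = 0.694 (adjusted p = 0.0506), with r = 0.903 within slide 1 and 0.114 within slide 2. Tnfsf11 against Tnfrsf11a gave r = 0.796 (permutation adjusted p = 0.0027) and rho = 0.774 (adjusted p = 0.0144), with 0.902 within slide 1 and 0.01 within slide 2, and 0.632 without the 2 farthest arrays. A further 5 relations had an adjusted permutation p of r between 0.0194 and 0.0412, while that of rho lay between 0.0585 and 0.148. Tnfsf11 was among them with the osteoclast markers (r = 0.691, rho = 0.568, and r = 0.169 within slide 2) and with the T cell markers (r = -0.745, rho = -0.635, and r = -0.259 within slide 2). The others were Tnfsf11 with Tnfrsf11b (r = 0.624, rho = 0.515, and r = -0.256 within slide 2), Tnfrsf11a with Tnfrsf11b (r = 0.692, rho = 0.644, and r = -0.03 within slide 2) and Tnfrsf11a with the osteocyte markers (r = 0.703, rho = 0.65, and r = -0.283 within slide 2). None of these relations held within slide 2. DMM replicates 1 and 2 at 1 week, both on slide 1, were far apart in osteocyte markers, at 2.92 and 1.42, and in osteoclast markers, at 3.94 and 2.33.

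Of the 2 Nfatc1 probes, A_51_P517870 was not called against the osteoclast markers, with r = 0.263 and an adjusted p of 0.423. A_51_P220135, set against the markers after its values had been seen, gave r = 0.778 (permutation p = 0.00051, adjusted p = 0.00136 over 8 relations) and rho = 0.762 (adjusted p = 0.00245), with r = 0.805 within slide 1 and 0.782 within slide 2. The difference between the 2 correlations was not tested. The other Tnfrsf11a probes gave r = 0.825 and 0.833 with the osteoclast markers, so RANK followed them with each of its 3 probes, and the second Tnfsf11 probe gave 0.682, with 0.747 within slide 1 and 0.444 within slide 2.

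**Figure D5:**
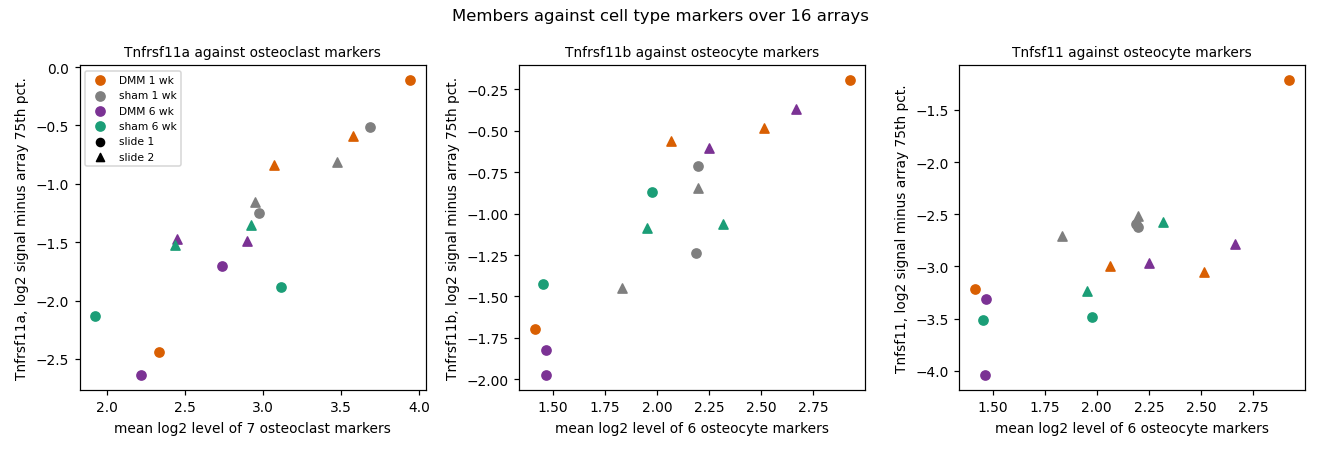
Levels of members against the mean log2 level of cell type markers on each of 16 arrays, with points marked by group. Tnfrsf11a lies along a line with the osteoclast markers (r = 0.883) and Tnfrsf11b with the osteocyte markers (r = 0.903).

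The genes whose levels were most like each member over the 16 arrays were ranked by Pearson r, as a description. For Tnfrsf11a they included Snx10 (r = 0.958), a sorting nexin needed for bone resorption by osteoclasts, Cyp4v3 (0.955), Ext1 (0.951) and Myo1d (0.951). For Tnfsf11 they were Gper1 (0.942), a membrane oestrogen receptor, Slc12a7 (0.922), Ccdc3 (0.92), Cgnl1 (0.92) and Chst5 (0.919). For Tnfrsf11b they were Ngef (0.918), Usp13 (0.905), Cmya5 (0.903), Tpbg (0.89) and Emp2 (0.89). For Nfatc1 they were Zfp36l2 (0.89), an RNA-binding protein, Trerf1 (0.89), Gfod1 (0.887), Nufip1 (0.877) and Ncoa1 (0.866). Without sham replicate 2 at 6 weeks the leading gene of each gave 0.96 for Snx10, 0.942 for Gper1, 0.914 for Ngef and 0.848 for Zfp36l2.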

How the data were processed

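RNA of 16 laser-microdissected joints was measured on 1-colour Agilent arrays. Per the file headers, Agilent Feature Extraction 10.7.3.1 made the deposited intensity of each spot (gProcessedSignal), which is background-subtracted and detrended within the array, and probe positions are on mm9. The authors also deposited a table of log2 values. It was made with limma 3.20.9 per the submitters' processing notes, its background and scaling are not given in these sources, and it served as an alternative. Other deposited columns hold the scanner's calls for spots (other values, used as filters), per the file headers.

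From the intensities, spots marked as outliers were set aside, spots of a probe were averaged, and log2 values minus the 75th percentile of the array were taken. The 342 probes without a spot on some array were dropped, except in a fit over 43466 single probes. A probe had to be well above background on at least 4 arrays, whatever the group. Each gene was represented by its brightest probe, which gave 28250 genes, fitted with limma 3.58.1 in R 4.3.3 (lmFit and eBayes, all 16 arrays, Benjamini-Hochberg, threshold 0.05, two-sided). A raised percentile from other transcripts lowers every level on an array, so differences are relative to it. Ratios were tested by two-sided exact permutation over arrays, and correlations with 100000 permutations over 16 arrays and exactly within slides, using scipy 1.17.1. The number of arrays limits the precision. The fit was tested on simulated data.

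Members, gene lists and marker lists were chosen with earlier results of these data known. Named genes are the 4 members with all probes, from each list the 2 genes with the smallest unadjusted p in the comparison described, and the 5 genes most like each member, of which 1 is not reported here. Replicate numbers follow the order of the records and pair no arrays. The labels give each array as 1 mouse. Alternatives were normexp background, quantile normalization, another percentile, other filters, slide as a block or alone, array weights, the mean of all probes, the authors' values, outlier spots kept, only the arrays compared, and each array left out.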

Additional observations from a re-analysis of the deposited data

Results flagged for a closer look

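Of 39 groups of 4 arrays tested, over the member probes and ratios, 4 held an array far from the other 3, with a gap to its nearest neighbour above the 95% critical value of Dixon for 4 values. Chance flags about 1 in 20 groups. In DMM joints at 1 week, replicate 1 had a Tnfsf11 A_55_P2039359 level of -1.22, far above the other 3. The same array had a log2 ratio of Nfatc1 A_51_P220135 to A_51_P517870 of 0.18, again far above the others. In DMM joints at 6 weeks, replicate 3 had an Nfatc1 A_51_P517870 level of 1.70, above the other 3. In sham joints at 6 weeks, replicate 1 had an Nfatc1 A_51_P220135 level of 0.023, below the other 3. The causes were not tested.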

How the results depend on the processing

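No paired analysis was possible because the replicate numbers name different mice and link no DMM joint with a sham joint. Settings that turned a sign did so mostly where estimates lay near 0, and the cause was not tested for any of them.

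With normexp background, DMM minus sham at 1 week was 0.082 for Tnfsf11 and 0.025 for Tnfrsf11a, the 6-week effect on the RANKL to osteoprotegerin ratio was -0.028, and over both times the effect was 0.0032 for Tnfsf11, 0.017 for A_52_P488947 and 0.0087 for A_55_P2621650. After quantile normalization the 6-week DMM effect was 2e-04 for Tnfsf11, and the change of the DMM effect between the times was 0.019 for Tnfsf11 and 0.034 for Tnfrsf11a. With the mean of all probes, the 1-week DMM effect was 0.015 for Tnfsf11 and 0.034 for Tnfrsf11a, the 6-week effect on the ratio was -0.039, the change of effect was -0.11 for Nfatc1, and 6 minus 1 week became called for Nfatc1 at -0.66. The authors' values gave 0.0074 for A_55_P2621650 over both times. Array weights gave 1-week DMM effects of 0.088 for Tnfrsf11a, -0.32 for A_52_P488947 and -0.13 for A_55_P2621650, and 6-week effects of 0.085 for Tnfsf11, 0.13 for Tnfrsf11b, 0.039 for A_52_P488947 and 0.066 for A_55_P2621650. Under the same weights the change of effect was 0.32 for Tnfsf11, -0.0899 for Nfatc1, 0.36 for A_52_P488947 and 0.20 for A_55_P2621650, 6 minus 1 week in sham was 0.023 for Tnfrsf11b, and averaged it became called for Tnfrsf11a at -0.78, Nfatc1 at -0.38 and A_52_P488947 at -0.67.

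Within slide 1, the 1-week DMM effect was 0.39 for Tnfsf11 and 0.36 for the ratio, over both times it was 0.11, -0.36 and 0.47 for Tnfsf11, Tnfrsf11b and the ratio, and the change of effect was 0.23 for Tnfrsf11a. Within slide 2, 1-week effects were 0.27 for Tnfrsf11a, 0.066 for A_51_P220135, -0.43 for A_52_P488947 and 0.018 for A_55_P2325803. Slide 2 gave 6-week effects of 0.031 for Tnfsf11, 0.59 for Tnfrsf11b, 0.025 for Nfatc1, 0.29 for A_52_P488947, 0.15 for A_55_P2325803, 0.035 for A_55_P2621650 and -0.56 for the ratio. Over both times its effects were 0.11 for Tnfrsf11a, 0.085 for A_55_P2325803, 0.067 for A_55_P2621650 and 0.029 for the Nfatc1 probe ratio, and the change of effect was 0.45 for Tnfsf11, 0.72 for A_52_P488947 and 0.13 for A_55_P2325803. There, 6 minus 1 week was 0.15 for Tnfsf11, 0.035 for Tnfrsf11b, 0.044 for A_52_P488947 and 0.12 for the ratio in DMM, 0.071 for Tnfrsf11b and 0.081 for the Nfatc1 probe ratio in sham, and 0.053 for Tnfrsf11b averaged.

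The call of A_51_P220135 was lost at -0.91 with the percentile over probes above background on all arrays and with no filter, at -0.85 with the authors' values, and at -1.41 and -0.41 within slides 1 and 2, and over all 11 settings its adjusted p ran from 0.00586 to 0.208. Genes called in the averaged 6-week comparison numbered 247, against 422 with normexp, 0 with no filter in limma, which tests more genes, 645 with slide as a block, 0 within either slide, 5888 with array weights, and 0 to 1502 without single arrays. Array weights also called 963 genes in DMM and 3302 in sham over time, and 1 and 2 genes for the 6-week DMM effect and its change. In that fit sham replicate 3 at 6 weeks had a weight of 9.12, so these counts lean on 1 array.

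Correlations lost their call within slide 1 for Tnfsf11 with Tnfrsf11b (0.817), Tnfrsf11a with Tnfrsf11b (0.824), Tnfsf11 with osteocyte (0.903), osteoclast (0.801) and T cell markers (-0.858), and Tnfrsf11a with osteocyte markers (0.864), where 8 arrays are left. Within slide 2 they gave 0.01 for Tnfsf11 with Tnfrsf11a, -0.256 for Tnfsf11 with Tnfrsf11b, -0.03 for Tnfrsf11a with Tnfrsf11b, 0.114, 0.169 and -0.259 for Tnfsf11 with osteocyte, osteoclast and T cell markers, and -0.283 and 0.777 for osteocyte markers with Tnfrsf11a and Tnfrsf11b. Without the 2 farthest arrays they gave 0.632 for Tnfsf11 with Tnfrsf11a, 0.312 for Tnfsf11 with Tnfrsf11b, 0.49 for Tnfrsf11a with Tnfrsf11b, 0.684, 0.511 and -0.377 for Tnfsf11 with osteocyte, osteoclast and T cell markers, and 0.525 for Tnfrsf11a with osteocyte markers. For deviations from group means Tnfsf11 with osteoclast markers gave 0.553, and without sham replicate 2 at 6 weeks Tnfsf11 with Tnfrsf11b gave 0.606.

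Leaving out single arrays moved the 1-week DMM effect from -0.48 to 0.19 for Tnfsf11, -0.35 to 0.42 for Tnfrsf11a, -0.31 to 0.23 for A_52_P488947, -0.093 to 0.36 for A_55_P2621650, -0.26 to 0.089 for A_55_P2325803, -0.21 to 0.14 for A_51_P220135 and -0.072 to 0.27 for the Nfatc1 probe ratio. The 6-week effect ran from -0.24 to 0.18 for Tnfsf11, -0.24 to 0.17 for Tnfrsf11a, -0.36 to 0.18 for Tnfrsf11b, -0.19 to 0.0495 for Nfatc1, -0.41 to 0.096 for A_52_P488947, -0.20 to 0.066 for A_55_P2325803, -0.39 to 0.13 for A_55_P2621650 and -0.19 to 0.20 for the ratio, with 0 to 1 genes called. Over both times it ran from -0.28 to 0.085 for Tnfsf11, -0.23 to 0.16 for Tnfrsf11a, -0.014 to 0.28 for Tnfrsf11b, -0.24 to 0.069 for A_52_P488947, -0.13 to 0.13 for A_55_P2621650, -0.17 to 0.0045 for A_55_P2325803 and -0.19 to 0.026 for the Nfatc1 probe ratio. The change of effect ran from -0.26 to 0.40 for Tnfsf11, -0.52 to 0.25 for Tnfrsf11a, -0.015 to 0.23 for Nfatc1, -0.45 to 0.15 for A_52_P488947, -0.17 to 0.18 for A_55_P2325803 and -0.52 to 0.0012 for A_55_P2621650. The 1-week DMM effect kept its sign but ran from 0.15 to 0.65 for Tnfrsf11b and -0.63 to -0.11 for the ratio. In DMM, 6 minus 1 week ran from -0.85 to -0.19 for Tnfsf11, -1.31 to -0.54 for Tnfrsf11a, -0.78 to -0.20 for Tnfrsf11b and -0.42 to 0.092 for the ratio with 0 to 27 genes called, in sham from -0.18 to 0.067 for Tnfrsf11b with 0 to 1 genes called, and averaged from -1.0 to -0.81 for A_51_P220135. Without DMM replicate 3 at 6 weeks, A_52_P488947 became called with an adjusted p of 0.0464 and A_55_P2325803 with 0.0487.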
